A study of Mus musculus with 6 samples.

Results

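The Sox genes encode a family of transcription factors, and 10 of them (*Sox2*, *Sox4*, *Sox5*, *Sox6*, *Sox9*, *Sox11*, *Sox12*, *Sox13*, *Sox17* and *Sox21*) were followed in cultures of mouse intestinal tumor cells that differed in p53. They were taken by gene symbol from a table of 36172 genes, and all 10 were listed. The table gives RNA levels as rpkm, reads per kilobase of gene scaled to the mapped reads of the library, in 6 libraries of poly(A) RNA. Each library came from organoids, 3-dimensional cultures of tumor epithelium. They were prepared from small intestinal tumors of C57BL/6 mice at 15 to 20 weeks of age. The sample titles number the 2 libraries of each genotype but name no mouse. All 6 carried the *Apc* Δ716 truncation, labelled Apc(D716), with loss of the wild-type *Apc* allele, which switches on Wnt signaling. They differed in *Trp53*, which was +/+, labelled p53(+/+), or flox/flox, labelled p53(flox/flox), or R270H/R270H, labelled p53(M/M), with 2 libraries each. The flox/flox cells held the R270H allele behind an unrecombined stop cassette and are labelled p53 null. In the R270H/R270H cells that cassette had been removed by villin-CreER, a recombinase of the gut epithelium that tamoxifen activates. The study describes its flox/flox mice as carrying villin-CreER too. The mutant allele and the exposure to tamoxifen and active Cre cannot be told apart in these groups. Whether the +/+ mice carried villin-CreER is not given in the sources used here.

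Sox proteins bind DNA through an HMG box, which recognizes a short A- and T-rich sequence and bends the double helix, and they usually act with a partner factor. They are grouped by sequence: *Sox2* and *Sox21* belong to SoxB, *Sox4*, *Sox11* and *Sox12* to SoxC, *Sox5*, *Sox6* and *Sox13* to SoxD, *Sox9* to SoxE and *Sox17* to SoxF. In the intestine *Sox9* is a Wnt-responsive factor of the crypt base that Paneth cells need, *Sox4* acts in progenitors and secretory lineages, *Sox17* specifies endoderm in the embryo and antagonizes β-catenin, and *Sox2* marks the foregut and stomach rather than the intestine.

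The start-site sequences of 3 members are shown, chosen among those with an entry in the promoter table, which leaves out *Sox17*. The *Sox11* promoter is included because the study assayed its chromatin accessibility, *Sox21* because it was low in R270H/R270H organoids and *Sox13* because it split the flox/flox pair. The study named *Hoxa9*, *Hoxa10*, *Gata2* and *Lef1*, not *Sox11*, as more accessible in R270H/R270H cells. Promoter entries existed in the RefSeq table (GRCm38.p6) for 8 of the 10 members, not for *Sox9* and *Sox17*. Each stretch is the 250 bases before the RefSeq start, 5′ to 3′ on the minus strand, at chr12:27342719-27342968 for *Sox11*, chr1:133424213-133424462 for *Sox13* and chr14:118237031-118237280 for *Sox21*. GENCODE, the source of gene positions, starts *Sox13* inside its window, at chr1:133424377. It starts *Sox11* at chr12:27342574, further downstream than RefSeq does, and *Sox21* at the RefSeq start. Capitals mark the sites of the study's 2 accessibility primers in *Sox11*. They lie at positions -199 to -180 and -60 to -41 from the RefSeq start and span 159 bases.
Sox11: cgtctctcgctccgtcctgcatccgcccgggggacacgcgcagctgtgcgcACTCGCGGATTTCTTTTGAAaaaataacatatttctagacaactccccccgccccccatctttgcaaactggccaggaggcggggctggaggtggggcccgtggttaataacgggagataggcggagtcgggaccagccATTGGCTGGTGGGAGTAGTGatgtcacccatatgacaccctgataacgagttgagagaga
Sox13: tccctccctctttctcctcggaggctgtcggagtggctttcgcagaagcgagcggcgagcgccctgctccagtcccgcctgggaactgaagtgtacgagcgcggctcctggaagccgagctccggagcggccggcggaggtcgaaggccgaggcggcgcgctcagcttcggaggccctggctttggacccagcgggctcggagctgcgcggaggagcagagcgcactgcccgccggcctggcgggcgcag
Sox21: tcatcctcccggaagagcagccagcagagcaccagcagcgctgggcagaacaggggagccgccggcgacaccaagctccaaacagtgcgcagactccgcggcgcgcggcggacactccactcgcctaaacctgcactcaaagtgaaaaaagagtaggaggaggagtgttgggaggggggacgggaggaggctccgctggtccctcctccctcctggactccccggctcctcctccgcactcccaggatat
GC content was 58.0% in *Sox11*, 72.4% in *Sox13* and 65.2% in *Sox21*, against a median of 52.4% over the 32851 promoters in the table. Windows of the same length were searched on both strands for ACAAAG and ACAAT, 2 forms of the core that Sox HMG boxes bind (16.5% and 27.7% of all promoters held them). They were also searched for CCAAT (33.8%), for the GC box GGGCGG (32.7%) and for TATAAA (12.4%). The *Sox11* window held 1 CCAAT, on the reverse strand at -60 inside the reverse primer site, and 2 GGGCGG, on the reverse strand at -228 and -151. None of these letters occurred in the *Sox13* or *Sox21* window. A match is a run of letters and not a binding site.

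No value in the table is below 1 rpkm, so 1 rpkm is a floor under which levels are unknown, and 23760 genes stood at it in all 6 libraries. Read steps between low values gave estimated depths of 44.2 to 47.4 M mapped reads in 5 libraries. The 48.5 M found for flox/flox replicate 1 rested on only 7 short RNA genes and was not used. For *Sox11*, a single-exon gene, the floor corresponded to about 367 to 394 reads. *Trp53* itself stood at 75.9 and 74.3 rpkm in the +/+ libraries, 1.73 and 2.48 in the flox/flox libraries and 72.8 and 82.7 in the R270H/R270H libraries, so it was low in the libraries labelled null. The 2 flox/flox libraries were less alike than the others, with a median s.d. per gene of 0.247 on the log2 scale against 0.0463 for +/+ and 0.0621 for R270H/R270H. All 8 epithelial markers were above the floor in the organoids, with summed levels of 2228 to 4270 rpkm. The enteric glia and nerve markers were at or near the floor (5 of 6 at the floor in all libraries), and of the mesenchymal markers *Col3a1* and *Col1a2* were at the floor throughout. Their sum was at the floor of 7.0 in 3 libraries, 7.53 and 7.59 rpkm in R270H/R270H and 19.6 rpkm in flox/flox replicate 2, where *Acta2* reached 11.5 rpkm.

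The family was led by *Sox4* in 5 of the 6 libraries, and by *Sox9* in flox/flox replicate 1. In +/+ organoids the genotype means were 34.8±3.19 rpkm for *Sox4*, 28.1±3.23 for *Sox17*, 18.3±0.929 for *Sox9*, 17.6±0.261 for *Sox21*, 15.4±0.00958 for *Sox13* and 2.63 for *Sox12*, given as mean±s.d. with n=2. *Sox9* and *Sox21* changed places between the 2 libraries and cannot be ordered. *Sox11* and *Sox6* were at the floor there. In R270H/R270H organoids *Sox4* (31.1±3.12) and *Sox9* (27.9±2.23) together made up 70.4% and 73.0% of the summed level of the members above the floor. The other 6 detected members lay between 2.07 and 6.11 rpkm, and *Sox11* and *Sox21* changed places between the libraries. The summed level was 121 and 113 rpkm in +/+, 70.8 and 109 in flox/flox and 78.4 and 85.9 in R270H/R270H libraries. *Sox2* and *Sox5*, a foregut and neural stem cell factor and a SoxD factor of cartilage and neurons, were at 1 rpkm in every library.

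**Figure D1:**
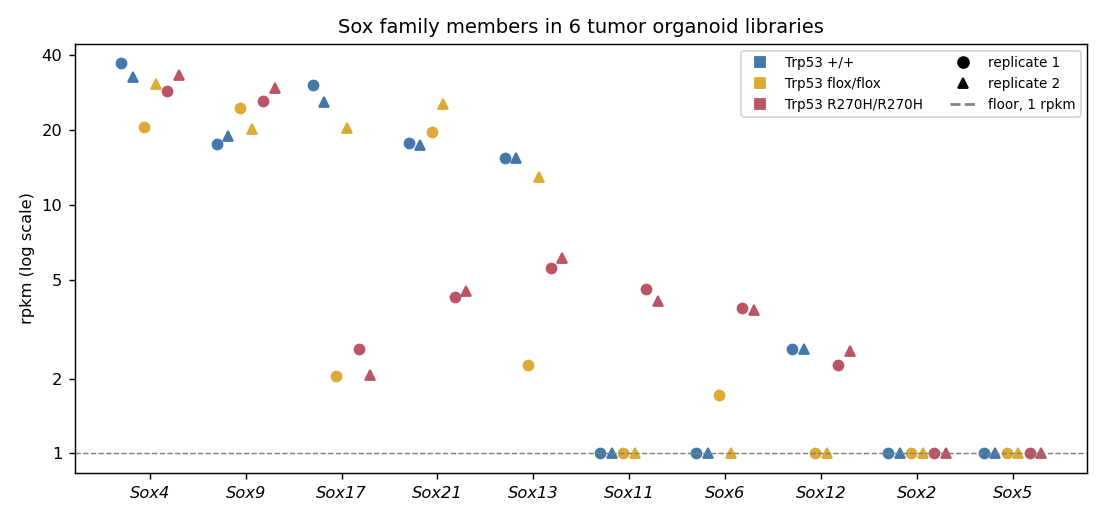
Level of each Sox member in rpkm (log axis) in the 6 libraries, with color for genotype and shape for replicate; the dashed line is the floor of 1 rpkm. *Sox21* is low in both R270H/R270H libraries (4.26 and 4.51), *Sox11* is above the floor only there, and *Sox17* and *Sox13* split the flox/flox pair.

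**Figure D2:**
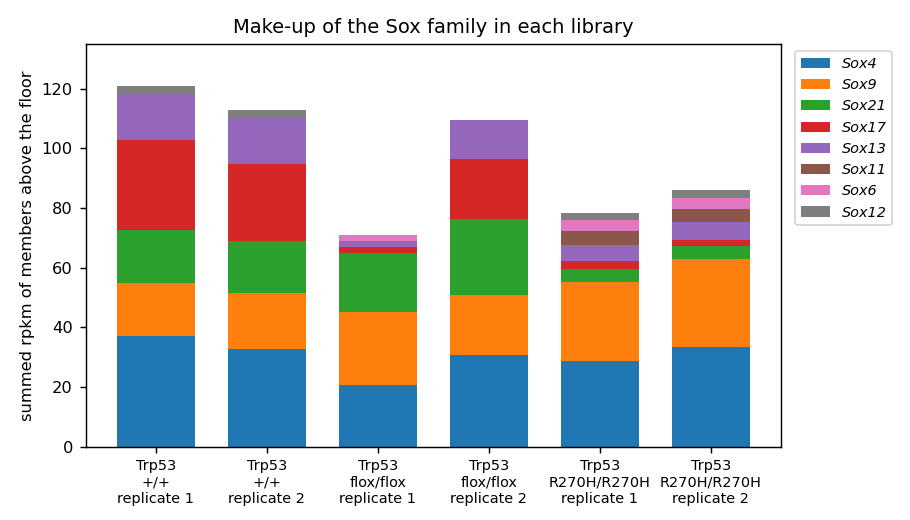
Summed rpkm of the members above the floor in each library, stacked by member. *Sox17*, *Sox13* and *Sox21* make up much of the +/+ bars, and *Sox4* and *Sox9* most of the R270H/R270H bars.

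The question of what the missense allele changed was first asked against +/+. In R270H/R270H organoids *Sox11* was higher and *Sox21* lower, both by limma with all 6 libraries, and *Sox9*, *Sox17* and *Sox13* gave differences that did not pass. limma, a linear model with a shared spread, was fitted to log2(rpkm+1) of the 10042 genes with at least 4 rpkm in 1 or more libraries, and a gene was called at an adjusted p under 0.05. Of the 10 members 6 passed that filter, *Sox11* only through the R270H/R270H libraries in which it was high. Of the 6, 1 was called higher and 1 lower (5.86% and 6.36% of all genes tested were called so), and by genotype means 1 was at least 2-fold higher and 3 at least 2-fold lower (4.38% and 6.09% of genes).

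*Sox11*, a SoxC factor of embryonic neurons and mesenchyme that is largely silent in adult epithelium, stood at 1 rpkm in all 4 +/+ and flox/flox libraries and at 4.57 and 4.12 rpkm in R270H/R270H. Both R270H/R270H libraries were above every other one. The mean of 4.35±0.320 rpkm was at least 4.35-fold higher than +/+, about 1680 and 1555 reads. On the fitted scale the difference was 1.42 (s.e. 0.15, limma adjusted p=0.00769). *Sox11* passed the filter only through the R270H/R270H libraries, so a difference was built into the filter. The 4 values at the floor add no spread, so this p does not measure the spread of those cultures. The call was lost without +/+ replicate 1, +/+ replicate 2 or R270H/R270H replicate 1, in fits that leave 1 library in a genotype. The difference was 1.42, 1.42 and 1.36 in them, so the loss tells little of *Sox11* itself. Over the alternatives other than leaving out 1 library, the limma adjusted p ran from 3.45e-05 to 0.0312. The study chose *Sox11* from these libraries, so its direction in them is not independent evidence. By real-time RT-PCR the study also reported higher *Sox11* in R270H/R270H organoids than in +/+ and flox/flox. It reported the same for invasive against non-invasive areas of tumors with 1 R270H allele.

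*Sox21*, a SoxB repressor known from neural and stomach development, was at 17.7 and 17.4 rpkm in +/+, 19.7 and 25.4 in flox/flox and 4.26 and 4.51 in R270H/R270H. The R270H/R270H libraries were below the other 4 without overlap. The +/+ mean was 4.01 times the R270H/R270H mean, and the log2 difference was -1.79 (s.e. 0.15, 95% interval -2.16 to -1.42, limma adjusted p=0.00441). In the 4 fits that each leave out 1 library of these genotypes the difference ran from -1.82 to -1.75. The call was lost in all 4, with 1 library left in a genotype.

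Both R270H/R270H libraries lay above the other 4 for *Sox9* and *Sox11* and below them for *Sox21*; over all genes tested 26.5% and 18.7% did so. *Sox9* had 17.7 and 19.0 rpkm in +/+, 24.5 and 20.2 in flox/flox and 26.3 and 29.5 in R270H/R270H. The R270H/R270H mean was 1.52 times that of +/+, with a log2 difference of 0.58 (95% interval 0.24 to 0.92, limma adjusted p=0.0524). The value is just outside the threshold, and with a filter set only above the floor it was 0.0488. Over the alternatives other than leaving out 1 library, the limma adjusted p ran from 0.000489 to 0.112. The lowest came with genotype weights, a fit that called 59.6% of all genes. With 1 library left out the log2 difference ran from 0.50 to 0.66. *Sox4* did not differ beyond the spread of its libraries. Its values were 37.1 and 32.6 rpkm in +/+, 20.7 and 30.6 in flox/flox and 28.9 and 33.3 in R270H/R270H, and the log2 difference of -0.16 had a 95% interval of -0.69 to 0.36. The other 325 tested genes of chromosome 13, where *Sox4* lies, had a median log2 difference of -0.34 in the same comparison, against 0.03 over all genes. The *Sox9* chromosome (11) had a median of 0.06.

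*Sox17*, the endoderm factor, gave the largest difference of the 6 in this comparison and *Sox13*, a SoxD factor known to bind TCF proteins, a smaller one in the same direction. *Sox17* was at 30.4 and 25.8 rpkm in +/+, 2.06 and 20.4 in flox/flox and 2.64 and 2.07 in R270H/R270H. The +/+ mean was 11.9 times the R270H/R270H mean (log2 difference -3.12, 95% interval -5.35 to -0.89, limma adjusted p=0.0799). *Sox13* was at 15.4 in both +/+ libraries, 2.26 and 12.9 in flox/flox and 5.56 and 6.11 in R270H/R270H, a ratio of +/+ to R270H/R270H of 2.64 (log2 difference -1.27, limma adjusted p=0.253). In both genes flox/flox replicate 1 was below the R270H/R270H libraries, for *Sox17* by little, and flox/flox replicate 2 lay between them and +/+. An exact two-sided test of 2 libraries against 2 cannot go below p=0.333, so only the model across genes was used, and its result depended on which libraries set the spread. With only the +/+ and R270H/R270H libraries in the limma fit, the adjusted p was 2.97e-05 for *Sox17* and 7.98e-05 for *Sox13*, in a fit that called 59.1% of all genes. When flox/flox replicate 1 was left out, *Sox17* gave an adjusted p of 0.000127 and *Sox13* 0.00025, and without flox/flox replicate 2 0.000124 and 0.00026. The fits without a flox/flox library called 57.8% of all genes each.

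**Figure D3:**
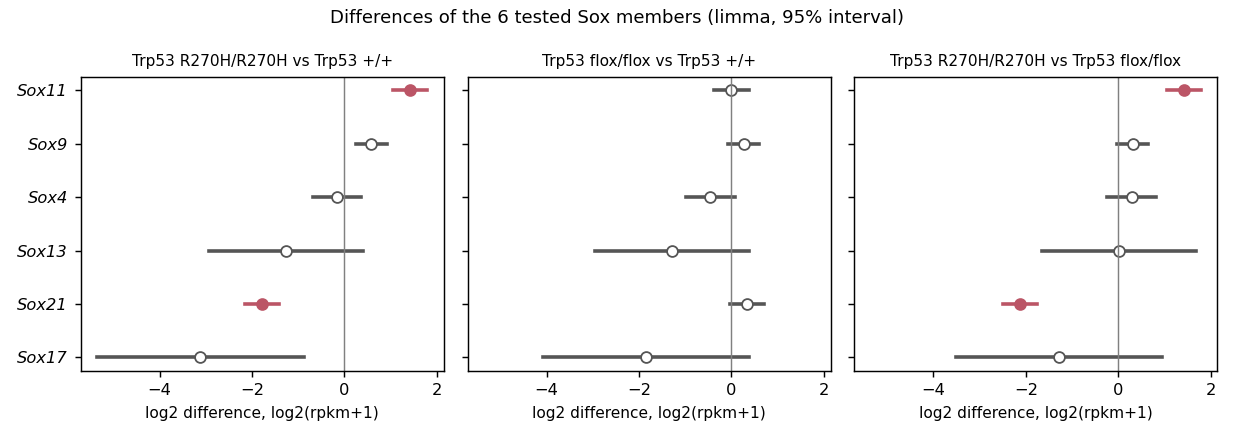
Log2 difference of log2(rpkm+1) with its 95% interval for the 6 members that passed the filter, in 3 comparisons; filled points passed the adjusted p threshold of 0.05. *Sox11* and *Sox21* pass in both comparisons with R270H/R270H, none in flox/flox against +/+, and *Sox17* and *Sox13* have the widest intervals.

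The comparison of flox/flox with +/+ asks what the loss of p53 changes on its own. No member passed: 0 were called higher and 0 lower, where 4.38% and 6.90% of all genes were, and 0 had an unadjusted p under 0.05 in limma, the smallest being 0.0688. *Sox11* was at the floor in every library of these genotypes, so it could not be called here. By genotype means *Sox17* and *Sox13* were at least 2-fold lower and 0 members 2-fold higher (6.49% and 4.54% of genes), but 0 were so when every pair of libraries had to be 2-fold apart. The log2 differences were -0.45 for *Sox4* (adjusted p=0.186), 0.27 for *Sox9* (0.218) and 0.33 for *Sox21* (95% interval -0.04 to 0.70, 0.174). The 2 wide ones were -1.84 for *Sox17* (95% interval -4.08 to 0.39) and -1.28 for *Sox13* (-2.95 to 0.38). Leaving out flox/flox replicate 2 called 4 members (*Sox17*, *Sox13*, *Sox9* and *Sox4*), and leaving out flox/flox replicate 1 called *Sox21*, in fits that called 69.3% and 41.9% of all genes.

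The flox/flox libraries disagreed in both genes. *Sox17* was 9.91 times and *Sox13* 5.71 times higher in replicate 2 than in replicate 1, and 209 genes (2.08% of those tested) differed by 5-fold or more between these libraries. The +/+ mean was 13.7 times replicate 1 for *Sox17* and 6.82 times for *Sox13*, so replicate 1 lay with the R270H/R270H libraries in these 2 genes, while its *Sox21* (19.7) and *Sox11* (at the floor) lay with the +/+ libraries. Endothelial cells express *Sox17* too. The summed level of their markers was, like *Sox17*, higher in +/+ and flox/flox replicate 2 than in the other libraries. The order differed, since the sum was highest in flox/flox replicate 2 and *Sox17* in +/+. The summed level of the 7 markers was 17.9 and 18.3 rpkm in +/+, at the floor of 7.0 in flox/flox replicate 1, 29.7 in flox/flox replicate 2 and 7.33 and 7.38 in R270H/R270H. This came from *Cdh5* (8.88 and 9.35 rpkm in +/+, 1 and 3.30 in flox/flox, 1.04 and 1 in R270H/R270H) and *Tek* (21.4 in flox/flox replicate 2), while *Pecam1*, *Kdr*, *Tie1* and *Emcn* were at the floor in all 6 libraries. The other marker, *Cldn5*, went the other way, at the floor in +/+ and flox/flox and at 1.13 and 1.24 in R270H/R270H. The immune list behaved alike through *Cd68* alone, at 10.2 and 9.87 rpkm in +/+, 2.06 and 11.1 in flox/flox and 2.22 and 2.41 in R270H/R270H, with the other 5 of its 6 genes at the floor. In bulk RNA fewer cells of a type and less RNA per cell cannot be told apart, and the part these levels play in *Sox17* was not tested.

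**Figure D4:**
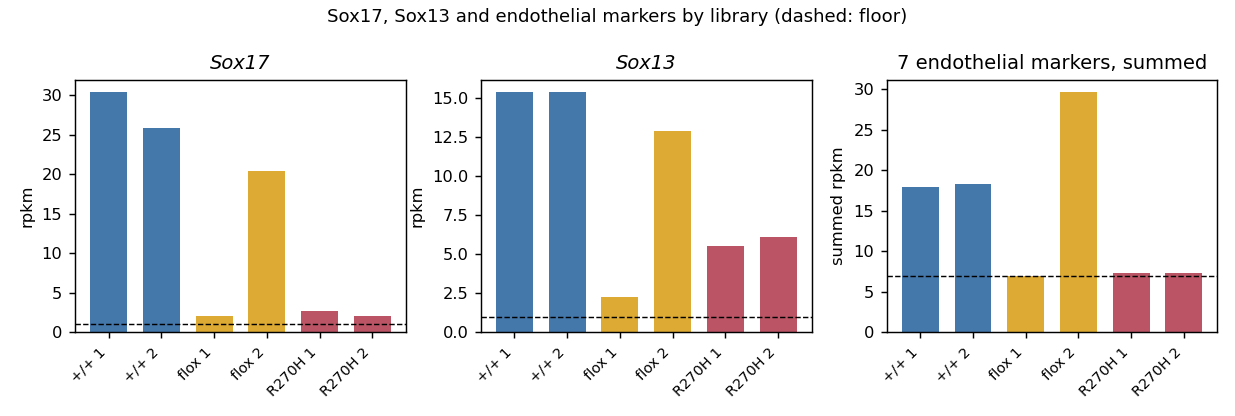
Level of *Sox17* and *Sox13* (rpkm) and the summed level of 7 endothelial markers (summed rpkm) in each library, colored by genotype; dashed lines are the floor, 1 rpkm for a gene and 7 for the sum. All 3 are high in flox/flox replicate 2 and low in flox/flox replicate 1 and both R270H/R270H libraries.

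The third comparison, R270H/R270H against flox/flox, sets the mutant allele against the p53-null state. It shares libraries with the other two, so it repeats part of them. *Sox11* was again higher (log2 difference 1.42, s.e. 0.15, limma adjusted p=0.00628), a difference built into the filter. *Sox21* was lower (-2.12, 95% interval -2.49 to -1.75, limma adjusted p=0.00247, flox/flox 5.14 times R270H/R270H). This was 1 call each way, where 13.6% and 11.0% of genes were called. By means 1 member was at least 2-fold higher and 2 (*Sox17* and *Sox21*) at least 2-fold lower, against 7.88% and 7.51% of genes. *Sox17* (-1.27, 95% interval -3.51 to 0.96), *Sox13* (0.02, -1.64 to 1.68), *Sox9* (0.31, -0.03 to 0.65) and *Sox4* (0.29, -0.23 to 0.82) did not pass. When only the 2 genotypes were fitted, *Sox11* gave an adjusted p of 0.0506, and its range over the alternatives was 0.000288 to 0.0506. Without flox/flox replicate 1 the called members numbered 5, adding *Sox17*, *Sox13* and *Sox9*, and without flox/flox replicate 2 they numbered 4, adding *Sox13* and *Sox4*, in fits that called 54.0% and 72.8% of all genes. *Sox13* was called in opposite directions in these 2 fits, lower without replicate 1 (-1.03, adjusted p=0.000902) and higher without replicate 2 (1.07, adjusted p=0.000406).

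Of the 4 members under the filter, 2 were above the floor. *Sox6*, a SoxD factor of muscle, red cells and cartilage, was at 1 rpkm in both +/+ libraries, 1.72 and 1 in flox/flox and 3.86 and 3.77 in R270H/R270H. The R270H/R270H mean was at least 3.82-fold above +/+. With a filter set just above the floor, which tests 12412 genes, it was called higher in R270H/R270H than in +/+ (log2 difference 1.27, limma adjusted p=0.0115) and than in flox/flox (1.05, adjusted p=0.0144). *Sox12*, a SoxC factor with weak activation, was at 2.63 rpkm in both +/+ libraries, at the floor in both flox/flox libraries and at 2.28 and 2.58 in R270H/R270H. The +/+ mean was at least 2.63-fold above flox/flox. It was called lower in flox/flox than in +/+ (-0.86, limma adjusted p=0.00841) and higher in R270H/R270H than in flox/flox (0.78, adjusted p=0.00479), and its R270H/R270H level differed little from +/+ (-0.08, 95% interval -0.27 to 0.10). That fit called 15.4%, 11.8% and 24.6% of its genes in R270H/R270H against +/+, flox/flox against +/+ and R270H/R270H against flox/flox. Both +/+ libraries for *Sox6* and both flox/flox libraries for *Sox12* stood at the floor. The direction of the differences from those groups was therefore built into that filter. Fitted differences of genes at the floor depend on the pseudocount, and values at the floor add no spread to the p-values.

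Among the other 10 Sox genes, 9 stood at 1 rpkm in every library. The exception was *Sox18*, a SoxF factor of vessels, at the floor in the +/+ and flox/flox libraries and at 4.08 and 4.64 rpkm in R270H/R270H (limma adjusted p=0.00804 against +/+). Like *Sox11*, it passed the filter only through the libraries in which it was high. The endothelial sum was near its floor, at 7.33 and 7.38, in the libraries that showed it. The entry *Sox2ot*, named after *Sox2*, was at the floor in all 6.

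The genes nearest to each member in profile were measured by the root mean square difference of log2(rpkm+1) over the 6 libraries, each gene centered on its mean. Nearest to *Sox17* were *Aldh1a7* (0.196), *Sulf2* (0.234) and *Apob* (0.259), and *Sulf2*, for example, had 40.8 and 47.6 rpkm in +/+, 3.81 and 31.1 in flox/flox and 2.89 and 3.31 in R270H/R270H. Nearest to *Sox13* were *Fkbp9* (0.127), *Agr3* (0.132) and *Itga2* (0.138). *Sox21* was nearest to *Eif4ebp1* (0.130), *Cst3* (0.186) and *Gprc5a* (0.203). *Sox11* had 17 genes within 0.1, led by *Rbm20* (0.0135), *Cdh11* (0.0254) and *Inhbb* (0.0305), which, like it, stood at the floor in 4 libraries. *Sox9* had 68 genes within 0.1, led by *Dusp18* (0.0426), *Sfswap* (0.0438) and *AI846148* (0.0494), and *Sox4* had 29, led by *Dync2li1* (0.0579), *Xylt2* (0.0583) and *Gnpda1* (0.0619), while *Sox17*, *Sox13* and *Sox21* had 0.

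Genes that act with Sox proteins or in the lineages they serve were counted from lists. The share of all genes called higher and lower was 5.86% and 6.36% in R270H/R270H against +/+, 4.38% and 6.90% in flox/flox against +/+ and 13.6% and 11.0% in R270H/R270H against flox/flox, the background for the counts of each list. *Lef1* and *Olfm4* passed the filter only through the R270H/R270H libraries and *Chgb* only through the +/+ libraries, so a difference in these 3 was built into the filter.

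Of the 15 partner factors, 9 were tested. *Lef1* and *Tcf7*, which bind DNA with β-catenin in Wnt signaling, and *Ctnnb1*, which encodes β-catenin, were called higher in R270H/R270H against +/+, by 1.50, 0.94 and 0.79 on the log2 scale (limma adjusted p=0.00603, 0.00679 and 0.0174), and 0 were called lower. *Lef1* was at 1.52 and 1.30 rpkm in +/+, 1 in both flox/flox libraries and 5.93 and 5.71 in R270H/R270H. *Ctnnb1* ran from 291 to 355 rpkm in the other genotypes and from 593 to 636 in R270H/R270H. The related *Tcf7l1* and *Tcf7l2* stayed under the filter and were not tested. Against flox/flox the same number, 3, were called higher and 0 lower, and in flox/flox against +/+ 0 were called. The median of the list was 0.60, -0.23 and 0.83 in R270H/R270H against +/+, flox/flox against +/+ and R270H/R270H against flox/flox, against 0.03, -0.02 and 0.03 over all genes.

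Of the 12 crypt stem cell genes, *Olfm4* (2.49) and *Znrf3* (1.05) rose and *Prom1* (-1.20) fell in R270H/R270H against +/+, with a list median of 0.13. *Olfm4*, a stem cell marker, was at the floor in +/+, 1.11 and 3.04 rpkm in flox/flox and 7.98 and 13.1 in R270H/R270H. In flox/flox against +/+ *Axin2* (-0.64) and *Tnfrsf19* (-0.85) fell and 0 rose. Against flox/flox 4 genes rose in R270H/R270H, among them *Olfm4* (1.95), *Znrf3* (1.57) and *Axin2* (1.08), and *Ascl2* (-1.72) fell.

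Of the 10 genes of Paneth cells, which depend on *Sox9*, 7 fell and 2 rose in R270H/R270H against +/+, with a median of -1.57. *Defa24* (-2.18), *Defa17* (-2.18), both defensins, and *Mmp7* (-1.96), a protease that processes them, fell, and the defensin *Defa22* (2.02) rose. In flox/flox against +/+ 6 fell, led by *Ang4* (-3.06), *Defa17* (-3.02) and *Defa24* (-2.92), and 0 rose, with a median of -1.55. Against flox/flox 3 rose in R270H/R270H, led by *Defa22* (3.47) and *Itln1* (1.64), and 2 fell, *Nupr1* (-1.58) and *Mmp7* (-1.40), with a median of 0.79. Defensin genes are near-identical copies, so reads may be split between them and their values are uncertain.

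Of the 14 foregut and gastric genes, the tissue of *Sox2* and *Sox21*, 8 were tested. *Lipf*, the gastric lipase, was called lower in R270H/R270H (-4.67) and in flox/flox (-3.98) against +/+, and 0 were called higher. Its levels were 47.9 and 51.9 rpkm in +/+, 1 and 4.17 in flox/flox and the floor in R270H/R270H. The flox/flox libraries stood apart here too. *Gkn3*, a gastrokine, was at 11.4 and 8.16 rpkm in +/+, 1 and 67.6 in flox/flox and 1 in R270H/R270H. In flox/flox replicate 2 *Aqp5* reached 18.9, *Gkn1* 10.6, *Cldn18* 7.27 and *Tff1* 5.83 rpkm, all of them at the floor in replicate 1. The list was not uniform. *Ctse* went the other way, at 352 in flox/flox replicate 1 and 129 in replicate 2, with 178 and 160 in +/+ and 285 and 307 in R270H/R270H. *Muc6* was at 9.17 and 7.88 in +/+, 1 and 8.96 in flox/flox and 16.6 and 19.9 in R270H/R270H. The list median was 0.58 in flox/flox against +/+ and -0.85 in R270H/R270H against flox/flox, where 0 were called.

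Of the 12 secretory, enteroendocrine and tuft genes linked to *Sox4*, 2 were tested, and *Chgb*, a granule protein of endocrine cells, was called lower in both comparisons with +/+ (-2.32 and -1.99), from 10.8 and 7.41 rpkm to 2.15 or less. Among the 9 intestinal identity factors *Gata6* rose (1.06) and *Gata4* fell (-1.04) in R270H/R270H against +/+, *Gata6* rose against flox/flox (0.78), and 0 were called in flox/flox against +/+.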

How the data were processed

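RNA was extracted from 6 tumor organoid cultures, poly(A) selected and sequenced as stranded HiSeq libraries. The authors aligned reads to mm10 and deposited rpkm values from StrandNGS, whose version, annotation and strand setting are not given in the sources used here. Values under 1 rpkm appear as 1, which is inferred from the table. Gene positions came from GENCODE M21 (GRCm38), and promoters from RefSeq (GRCm38.p6).

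log2(rpkm+1) of 10042 genes with at least 4 rpkm in 1 or more libraries was fitted with limma 3.58.1 (R 4.3.3; lmFit, eBayes with trend, genotype only, 3 residual degrees of freedom), with two-sided p-values adjusted by Benjamini-Hochberg over all genes at 0.05. P-values measure the spread between 2 organoid cultures a genotype, to which values at the floor add none. Ratios are of rpkm means, and those against a group at the floor are lower bounds. The members, lists and tests were chosen with earlier results of these data known. All members were named whatever their values, and list genes from the 4 largest called differences of a list and comparison. *Sulf2*, *Acta2*, *Tek*, *Cdh5*, *Cldn5*, *Cd68*, *Tcf7l1*, *Tcf7l2*, *Gkn3*, *Aqp5*, *Gkn1*, *Cldn18*, *Tff1*, *Ctse* and *Muc6* were singled out after their values were seen. Depth was estimated from 1-read steps of 13 to 20 short RNA genes, and of 7 in flox/flox replicate 1, whose estimate was not used. Alternatives were another filter, pseudocount or scaling, no trend, genotype weights, fits of 2 genotypes, a replicate block and each library left out. The code was tested on simulated data. Python 3.11.15 was used for the rest.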

Additional observations from a re-analysis of the deposited data

How the results depend on the processing

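The count of members called was 2, 0 and 2 in R270H/R270H against +/+, flox/flox against +/+ and R270H/R270H against flox/flox. It became 4, 1 and 4 with a filter above the floor, which adds *Sox6*, *Sox12* or *Sox9*, 5 in the first with genotype weights or with only the 2 genotypes fitted, and 1 in the third with only the 2 genotypes fitted. Leaving out 1 library gave 0 to 5, 0 to 4 and 2 to 5. These fits also moved the calls over all genes in R270H/R270H against +/+, from 1227 (12.2%) to 5987 (59.6%) with weights, 5768 with 2 genotypes, 5737 and 5746 without a flox/flox library, and 0 without either +/+ library or R270H/R270H replicate 1. Over the alternatives, calls over all genes ran from 8 to 6891 in flox/flox against +/+ (1133 in the fit reported) and from 165 to 7241 in R270H/R270H against flox/flox (2469). The 2-fold count in flox/flox against +/+ went from 2 to 0 when every pair of libraries had to differ. *Sox13* in R270H/R270H against flox/flox changed sign under median-of-ratios scaling (-0.011) and, with libraries left out, ran from -1.03 to 1.07, and *Sox17* ran from -2.68 to 0.13. Of 287 alternatives for single members, 253 kept direction and call, 22 gained a call, 8 lost one and 4 reversed. The 253 include the 15 for *Sox11* in flox/flox against +/+, which the floor fixed in advance.

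Same-numbered deviations of the libraries correlated at 0.117, -0.291 and -0.196 between genotypes. Numbers within a genotype may be arbitrary, so these values cannot show whether libraries were paired. The replicate block gave 2, 0 and 2 calls, as did a block in which the numbers of the mutant libraries were swapped, chosen after seeing the data, and calls over all genes in R270H/R270H against +/+ were then 550 and 941. The floor and 2 libraries a genotype limit all of these values.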
